A study of Mus musculus with 9 samples.

Results

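Gene expression was examined for 8 genes that activate, receive or respond to thyroid hormone and glucocorticoid: the enzymes Dio2 and Hsd11b1, the receptors Thra, Thrb and Nr3c1, and the hormone-induced genes Klf9, Tsc22d3 and Fkbp5. They were found by symbol in the platform annotation, as 8 of 12393 named genes, and are read by 22 of the 22626 probe sets that are not controls. The tissue was layer IV of the mouse barrel cortex, where thalamic axons carrying whisker input meet clustered neurons, cut out by laser from C57BL/6 mice at postnatal day 5. The mice were knockout (KO), heterozygous (HZ) or wild type (WT) for Gap43, the gene of the growth cone phosphoprotein GAP-43, with 3 mice per genotype and 1 Affymetrix array per mouse. No treatment or second allele is named in the labels, which describe all 3 groups as the same strain and age. The labels do not give the deleted part of Gap43, and they name no promoter or cell type that would restrict its loss.

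Thyroid hormone reaches brain cells mainly as thyroxine, which is converted to the active triiodothyronine by the type II deiodinase DIO2. In the brain Dio2 is expressed chiefly in astrocytes and tanycytes, and the hormone then acts in neurons and glia through the nuclear receptors encoded by Thra and Thrb. Glucocorticoids are likewise activated inside cells: HSD11B1, a hydroxysteroid dehydrogenase of the endoplasmic reticulum, turns inactive keto steroids back into receptor ligands, and the glucocorticoid receptor, encoded by Nr3c1, then moves to the nucleus and switches on genes such as Tsc22d3 and Fkbp5.

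The members were selected on measured signals of these same arrays. The differences of Dio2 and Hsd11b1 between KO mice and the other genotypes were among those results, so the KO values of these 2 enzymes are given as a description and with no test. The other 6 genes are receptors and targets of the hormones that the 2 enzymes activate. Their adjusted p-values come from a fit to all 13576 probe sets that passed a filter on dim signal. All 8 genes had at least 1 probe set above the filter, and 19 of their 22 probe sets passed. The 3 that did not were 2 of Klf9 and 1 of Nr3c1.

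The KO arrays carried a mean Gap43 signal of 1403 ± 484, against 4814 ± 368 on HZ arrays and 5376 ± 1500 on WT arrays (SD, n = 3 each). Gap43 was the 1 probe set past the adjusted threshold of 0.05 in KO against WT (limma adjusted p = 0.0173) and in KO against HZ (adjusted p = 0.0362), and 0 passed in HZ against WT. Rorb, a transcription factor of layer IV neurons, was measured on every array, at 302 to 356 in KO, 518 to 709 in HZ and 460 to 589 in WT mice. HZ 2 stood apart in the signal ratio between the 3' and 5' ends of the Actb and Gapdh controls, at 26.4, whereas the other arrays lay between 9.94 and 15.5. By sex-linked transcripts, each genotype held 2 females and 1 male. The scaled signals are MAS5 values that the authors brought to 1 common level per array, and no level of 1 gene can be set against that of another.

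The sequences just upstream of the 2 enzyme genes are shown because both enzymes had lower signals in KO mice. Each line gives the 250 bases before the annotated start (RefSeq, build GRCm38.p6), read 5′ to 3′ on the gene's own strand, for Dio2 at chr12:90739039-90739288 on the minus strand and for Hsd11b1 at chr1:193242361-193242610 on the minus strand. Capitals mark a cAMP response element (TGACGTCA) and a TATA box (TATAAA), neither of which occurs in the Hsd11b1 stretch.
Dio2 promoter: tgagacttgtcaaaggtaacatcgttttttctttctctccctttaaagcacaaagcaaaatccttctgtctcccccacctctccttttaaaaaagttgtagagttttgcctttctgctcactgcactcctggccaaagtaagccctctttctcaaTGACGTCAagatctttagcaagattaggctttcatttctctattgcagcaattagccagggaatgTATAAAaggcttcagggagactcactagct
Hsd11b1 promoter: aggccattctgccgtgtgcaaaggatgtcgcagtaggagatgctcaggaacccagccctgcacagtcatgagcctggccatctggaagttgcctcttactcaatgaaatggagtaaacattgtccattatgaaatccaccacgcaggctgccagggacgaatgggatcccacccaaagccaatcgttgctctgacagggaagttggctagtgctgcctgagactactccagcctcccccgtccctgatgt
The 2 stretches differ in base composition, with 41.6% G and C for Dio2 and 54.4% for Hsd11b1. A cAMP response element, the site through which cAMP signalling acts on many promoters, lay 95 to 88 bases before the Dio2 start. Searched on both strands, TGACGTCA was present in 1.55% of 32851 RefSeq promoter windows of this length. TATAAA lay 30 to 25 bases before the Dio2 start and was present in 12.4% of all windows. A full glucocorticoid response element (AGAACA, 3 bases of any kind and TGTTCT) and a thyroid hormone element of 2 direct repeats (AGGTCA, 4 bases of any kind and AGGTCA) were in none of the 9 windows available for 6 of the 8 genes, and in 0.00913% and 0.0152% of all windows. The shorter half-site AGAACA, which is part of the full glucocorticoid element, was found before 1 of the 2 Thrb starts and 1 of the 3 Tsc22d3 starts, and in 16.1% of all windows. AGGTCA, which is part of the full thyroid element, was found before the other Thrb start, and in 14.0% of all windows. These are letter matches within a short window, not binding sites.

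Dio2 had signals of 592, 588 and 573 on the KO arrays, 1322, 929 and 1842 on the HZ arrays and 1288, 1036 and 1577 on the WT arrays, on its brightest probe set. Every KO array lay below every HZ and WT array, while the HZ and WT arrays overlapped throughout. The KO mean was 44.9% of the WT mean and 42.8% of the HZ mean. On the log2(signal + 16) scale, on which all changes below are given, the difference was -1.11 ± 0.23 (SE) in KO against WT and -1.15 ± 0.23 in KO against HZ. Of the 13576 probe sets tested, 21 and 13 had a log2 change as low or lower in these comparisons. Dio2 was chosen with these differences known, so nothing is read from these ranks. Between HZ and WT mice Dio2 differed by 0.04 on this scale (limma adjusted p = 0.978, with a 95% interval of -0.45 to 0.52). The spread among the 3 KO mice was narrow, with a coefficient of variation of 1.76%, against 33.6% among HZ and 20.8% among WT mice. Among HZ and WT arrays, the lowest signals were on HZ 2 and WT 2, which had the highest 3'/5' ratios of those arrays, 26.4 and 15.5. HZ 3, the highest in signal, had the lowest ratio, 9.94. The KO ratios were 11.2 to 14.5. With the ratio as a term in the fit, KO against WT was -1.04. The part of the ratio in the spread and in the KO differences was not tested further.

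The other Dio2 probe sets were dim and did not repeat the size of this difference. The second brightest read 163, 173 and 186 in KO, 234, 235 and 255 in HZ and 160, 188 and 265 in WT mice. Its KO arrays lay below all HZ arrays (log2 change -0.44 ± 0.20, SE) and overlapped the WT arrays (-0.19 ± 0.20). The dimmest read 151, 198 and 199 in KO, 193, 109 and 216 in HZ and 186, 235 and 153 in WT mice, with overlap throughout and log2 changes of -0.05 against WT and 0.12 against HZ. The mean of the 3 probe sets gave log2 changes of -0.45 and -0.49 for KO against WT and HZ.

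Hsd11b1, read by 1 probe set, had signals of 312, 327 and 300 on the KO arrays, 857, 519 and 488 on the HZ arrays and 607, 719 and 671 on the WT arrays. As for Dio2, every KO array lay below every other array, and HZ and WT overlapped. The KO mean was 47.1% of the WT mean and 50.4% of the HZ mean, with log2 changes of -1.05 ± 0.20 and -0.91 ± 0.20 (SE). In HZ against WT the log2 change was -0.14 (limma adjusted p = 0.892, 95% interval -0.58 to 0.30). HZ 1 was the highest of all 9 arrays for this gene, and the other HZ arrays were below all WT arrays.

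Since no KO array of the 2 enzymes overlapped the others, their direction within each sex was fixed in advance, and only the sizes are given. Between females, 2 per genotype, the log2 change in KO against WT was -0.97 for Dio2 and -1.04 for Hsd11b1, and between the single males it was -1.39 and -1.07. Against HZ it was -1.15 for Dio2 and -0.66 for Hsd11b1 between females, and -1.14 and -1.41 between males. With any single KO or WT array left out, KO against WT lay between -1.26 and -0.96 for Dio2. For Hsd11b1 it lay between -1.11 and -0.99. HZ arrays, HZ 2 among them, do not enter this difference. With any single KO or HZ array left out, KO against HZ lay between -1.39 and -0.91 for Dio2. For Hsd11b1 it lay between -1.05 and -0.66. In HZ against WT the sign differed between the sexes, at 0.18 in females and -0.25 in the male for Dio2 and at -0.38 and 0.35 for Hsd11b1. With 1 male per genotype, these values are a description.

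**Figure D1:**
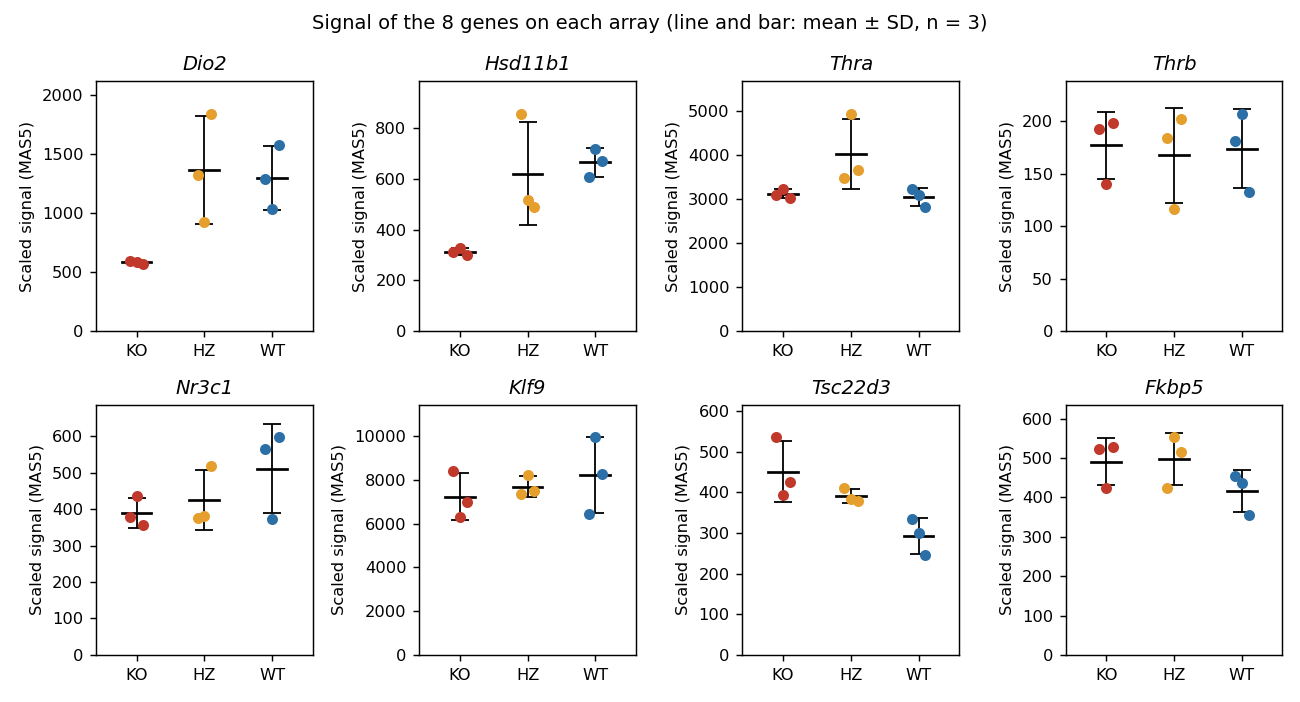
Scaled MAS5 signal (vertical axes, starting at 0) of the brightest probe set of each of the 8 genes on the KO, HZ and WT arrays; points are single mice, the long line is the mean and the bar the SD (n = 3). The KO points of Dio2 (573 to 592) and Hsd11b1 (300 to 327) sit below all HZ and WT points, the KO points of Tsc22d3 sit above all WT points, and the other genes overlap between KO and WT.

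Thra, which encodes the thyroid hormone receptor predominant in the developing brain, had signals of 3100, 3232 and 3033 in KO, 3472, 4944 and 3671 in HZ and 3230, 3093 and 2834 in WT mice. The HZ arrays lay above all KO and WT arrays, whereas KO and WT overlapped. In HZ against WT the log2 change was 0.38 (limma adjusted p = 0.789, 95% interval 0.07 to 0.70), in KO against HZ -0.35 (-0.66 to -0.03, adjusted p = 0.609) and in KO against WT 0.03 (-0.28 to 0.35, adjusted p = 0.964). HZ 2, the array that stands apart in the 3'/5' ratio, was the highest, and without it the HZ to WT difference of Thra was the smallest of those with 1 array left out, at 0.23. The part of the 3'/5' ratio in this difference was not tested beyond the fits with it as a term and without HZ 2. The second Thra probe set read 620, 558 and 484 in KO, 555, 649 and 708 in HZ and 508, 430 and 519 in WT mice. There too the HZ arrays lay above all WT arrays (log2 change 0.38, adjusted p = 0.789), but not above all KO arrays.

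Thrb, the receptor whose expression in brain comes later in development, was dim on its 1 probe set. It read 192, 141 and 198 in KO, 184, 117 and 202 in HZ and 182, 207 and 133 in WT mice. All 3 genotypes overlapped, and the log2 changes were 0.03 in KO against WT (95% interval -0.49 to 0.55, limma adjusted p = 0.981), -0.06 in HZ against WT (adjusted p = 0.964) and 0.09 in KO against HZ (adjusted p = 0.954). The interval in KO against WT spans 0.712-fold to 1.47-fold.

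Nr3c1, the glucocorticoid receptor gene, read 379, 434 and 356 in KO, 374, 382 and 518 in HZ and 564, 372 and 597 in WT mice on its brightest probe set. The mean was lowest in KO and highest in WT mice, but WT 2 lay within the KO range. The log2 change was -0.35 in KO against WT (limma adjusted p = 0.714, 95% interval -0.79 to 0.09), -0.24 in HZ against WT (adjusted p = 0.833) and -0.11 in KO against HZ (adjusted p = 0.939). On the second probe set the signals were 246, 276 and 237 in KO, 301, 265 and 379 in HZ and 355, 304 and 377 in WT mice, so that KO arrays lay below all WT arrays (log2 change -0.42 ± 0.18, SE, adjusted p = 0.586). Neither probe set passed.

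Klf9, a zinc finger transcription factor induced by both hormones in brain cells, was bright. Its brightest probe set read 8413, 6316 and 6972 in KO, 7350, 8240 and 7491 in HZ and 6447, 9939 and 8248 in WT mice, with overlap between all groups. The log2 change was -0.17 in KO against WT (limma adjusted p = 0.813, 95% interval -0.51 to 0.17), -0.07 in HZ against WT (adjusted p = 0.931) and -0.10 in KO against HZ (adjusted p = 0.928). The next 2 probe sets by brightness gave -0.25 and -0.36 in KO against WT and -0.26 and -0.39 in KO against HZ, where their KO arrays lay below all HZ arrays. The 2 dim ones above the filter gave 0.11 and 0.09 in KO against WT. Without WT 2 the KO to WT difference of the brightest probe set was -0.02.

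Tsc22d3, which encodes the glucocorticoid-induced leucine zipper protein GILZ, read 535, 393 and 425 in KO, 410, 384 and 379 in HZ and 334, 299 and 246 in WT mice. Both KO and HZ arrays lay above all WT arrays and overlapped each other. The log2 change was 0.59 in KO against WT (limma adjusted p = 0.473, 95% interval 0.22 to 0.97), 0.41 in HZ against WT (0.03 to 0.78, adjusted p = 0.789) and 0.19 in KO against HZ (-0.19 to 0.56, adjusted p = 0.852). This probe set is of a type whose probes can also match other transcripts. The second probe set of Tsc22d3 read 482, 318 and 205 in KO, 133, 98.8 and 167 in HZ and 146, 192 and 273 in WT mice. Here the KO arrays lay above all HZ arrays (log2 change 1.19 ± 0.30, SE, adjusted p = 0.342) and overlapped the WT arrays (0.64 ± 0.30, adjusted p = 0.633). HZ was on the other side of WT on this probe set (-0.55 ± 0.30, adjusted p = 0.790), and the dimmest had log2 changes of -0.01 in KO against WT, -0.06 in HZ against WT and 0.05 in KO against HZ. The mean of the 3 probe sets gave -0.07 in HZ against WT, the other sign from the brightest. The gene lies on the X chromosome. Its KO to WT difference was 0.35 between females and 1.07 between males.

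Fkbp5, a co-chaperone that glucocorticoid induces and that in turn lowers the receptor's hormone binding, read 522, 423 and 527 in KO, 425, 552 and 514 in HZ and 455, 436 and 355 in WT mice. The groups overlapped, with log2 changes of 0.23 in KO against WT (95% interval -0.14 to 0.60, limma adjusted p = 0.769), 0.25 in HZ against WT (adjusted p = 0.809) and -0.02 in KO against HZ (adjusted p = 0.986). On the dimmer probe set the signals were 165, 180 and 179 in KO, 173, 179 and 209 in HZ and 173, 125 and 97.0 in WT mice. HZ arrays lay above all WT arrays there, by a log2 difference of 0.49 ± 0.21 (SE, adjusted p = 0.789), and KO against WT gave 0.40 ± 0.21 (adjusted p = 0.675). WT 3 was the lowest array on both probe sets.

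**Figure D2:**
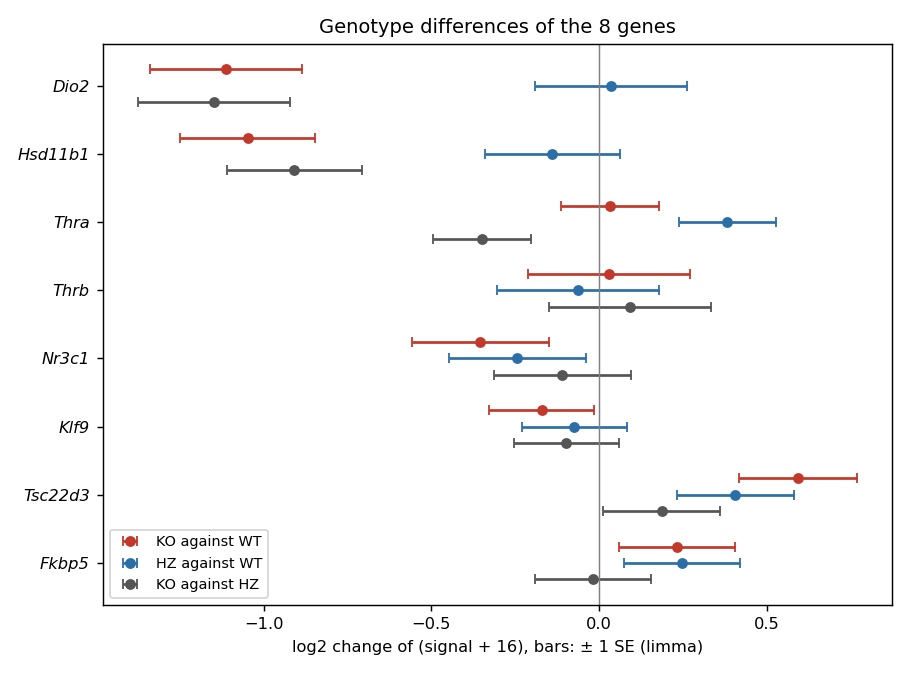
log2 change of (signal + 16) for the brightest probe set of each gene in the 3 comparisons, with bars of 1 SE from limma. Dio2 and Hsd11b1 lie between -1.15 and -0.91 in both KO comparisons and near 0 in HZ against WT, Tsc22d3 lies at 0.59 in KO against WT, and Thra is the 1 gene whose HZ against WT and KO against HZ values lie on opposite sides of 0 by more than 0.3.

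Counted over the 8 brightest probe sets, 0 genes passed the adjusted threshold in any of the 3 comparisons. The share of all tested probe sets that passed was 0.00737% in KO against WT, 0% in HZ against WT and 0.00737% in KO against HZ. At an unadjusted p below 0.05, KO against WT held 3 genes (Dio2, Hsd11b1 and Tsc22d3), where 8.03% of all tested probe sets did, and KO against HZ held 3 (Dio2, Hsd11b1 and Thra), where 7.73% did. The 2 enzymes in both counts follow from how the members were chosen, so nothing is read from these counts. HZ against WT held 2 genes, Thra and Tsc22d3, both higher in HZ, where 6.22% of all tested probe sets did. That count was 0 with arrays set to 1 median, 0 without HZ 2 or without WT 3, 1 without HZ 3 and 3 without WT 2. The same genes made up the counts of groups that did not overlap: 3 in KO against WT (13.7% of all tested probe sets), 2 in HZ against WT (12.9%) and 3 in KO against HZ (14%). The 3 comparisons share arrays pairwise, so a gene's values in them are not independent.

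**Figure D3:**
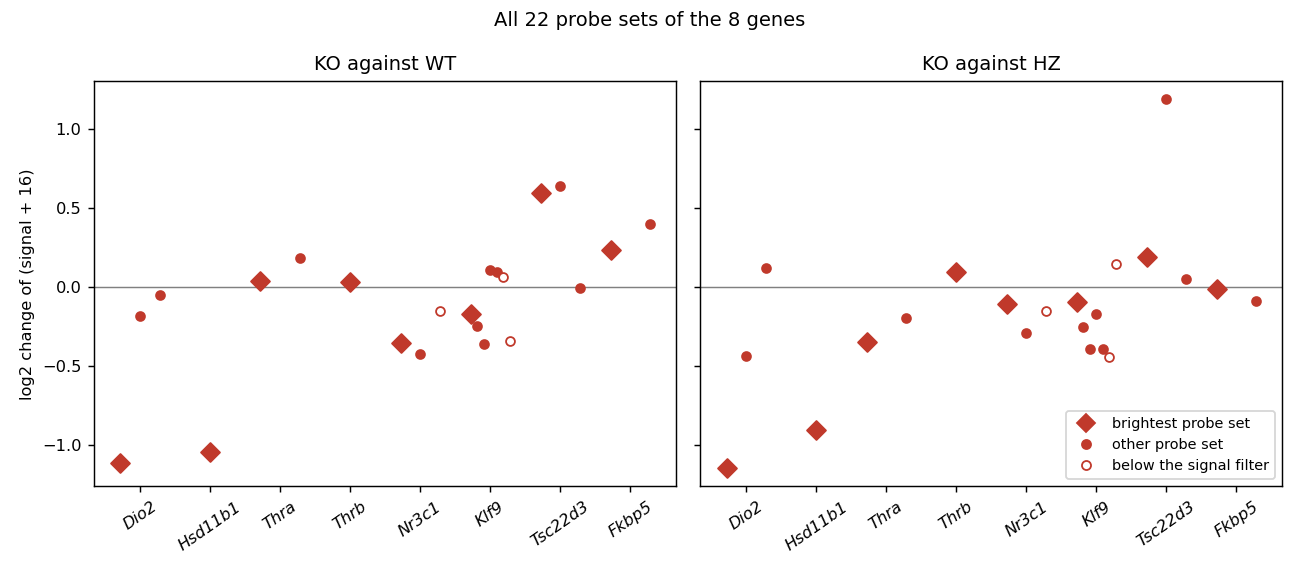
log2 change of (signal + 16) of all 22 probe sets in KO against WT (left) and KO against HZ (right); diamonds are the brightest probe set of each gene, filled points the others and open points those below the signal filter. The brightest Dio2 probe set lies at -1.11 and -1.15, apart from the dimmer 2, and the second Tsc22d3 probe set lies at 1.19 in KO against HZ, apart from its neighbours.

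Each enzyme was then set against genes that its hormone induces. The KO arrays stood apart in both enzymes, so that a correlation over all arrays would mostly restate the genotype difference, and the relation was read over the 6 HZ and WT arrays, a choice made after seeing the data. For Dio2 with Klf9, Pearson's r was -0.409 and Spearman's rho -0.2 (exact permutation p = 0.435 and 0.714, adjusted over 4 relations 0.799 and 1). Hsd11b1 gave r = -0.149 and rho = -0.0286 with Tsc22d3 (exact permutation p = 0.787 and 1, adjusted 0.799 and 1). With Fkbp5 it gave r = -0.684 and rho = -0.771 (exact permutation p = 0.124 and 0.103, adjusted 0.494 and 0.411), and with Klf9 r = 0.156 and rho = 0.143 (exact permutation p = 0.799 and 0.803, adjusted 0.799 and 1). None of the 4 relations passed. Without the 2 arrays farthest from the enzyme's median, r over the remaining 4 arrays was -0.453, -0.795, -0.776 and 0.445 in the same order. Neither Fkbp5 nor Tsc22d3 had a positive r with Hsd11b1 in these arrays. Tsc22d3 lay higher in HZ than in WT arrays without overlap, so its r mixes genotype with differences between mice. Over all 9 arrays with genotype means taken out, r with Hsd11b1 was 0.0668 for Tsc22d3 and -0.641 for Fkbp5. Nothing on the action of the enzymes is read from these signs.

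Genes with the pattern most like each enzyme were found by Pearson's r over the 9 arrays among 12437 tested probe sets with 1 symbol, and the KO arrays, low in both enzymes, shape this likeness. For Dio2 they were Src, a tyrosine kinase (r = 0.968), Vcam1, an adhesion molecule of vessels and some glia (r = 0.948), and Lman1, a cargo receptor of the secretory pathway (r = 0.947). Src read 128, 134 and 132 in KO, 205, 141 and 241 in HZ and 187, 170 and 213 in WT mice. For Hsd11b1 they were Zadh2 (r = 0.964), the collagen gene Col26a1 (r = 0.956) and a probe set of Gja1, the connexin 43 gene of astrocytes (r = 0.934). Zadh2 read 465, 467 and 474 in KO, 637, 580 and 534 in HZ and 627, 669 and 623 in WT mice. The genotype differences of all these were smaller than those of the enzymes, with log2 changes in KO against WT from -0.64 for that Gja1 probe set to -0.35 for Lman1.

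The wider thyroid hormone pathway was read from a list of 16 transporters, deiodinases, binding proteins and receptor partners, of which 7 were measured. None passed in any comparison (0 of 7), and the median log2 change in KO against WT was -0.03, beside 0.02 over all 8503 genes. Slco1c1, a thyroxine transporter of the blood-brain barrier, read 538, 593 and 629 in KO, 1011, 642 and 642 in HZ and 1044, 660 and 1061 in WT mice. KO arrays of Slco1c1 lay below all HZ and WT arrays, with a log2 change of -0.61 ± 0.22 (SE) in KO against WT (limma adjusted p = 0.537). Crym, which encodes the cytosolic triiodothyronine-binding protein mu-crystallin, ranged from 70.7 to 345 in KO, from 103 to 174 in HZ and from 177 to 506 in WT mice (log2 change -0.81 in KO against WT, adjusted p = 0.697, and -0.90 in HZ against WT). Slc7a8, an amino acid exchanger that also carries thyroid hormone, had a log2 change of 0.38 in KO against WT (adjusted p = 0.721). The inactivating deiodinase gene Dio3 was not analysed here, and Dio1 was below the filter.

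Of 15 genes described as thyroid hormone responsive in brain, 11 were measured and 0 passed. At an unadjusted p below 0.05, 3 were lower and 0 higher in KO against WT, where 3.74% of all genes were lower and 4.41% higher. They were Dbp, a circadian transcription factor, at 956 ± 179 in KO and 1504 ± 428 in WT mice (SD, n = 3, limma adjusted p = 0.530), Rora, a nuclear receptor of thalamic and cerebellar neurons, at 728 ± 185 and 1043 ± 67.6 (adjusted p = 0.536), and Thrsp, a regulator of fatty acid synthesis, at 83.5 ± 25.8 and 138 ± 26.4 (adjusted p = 0.537). Thrsp was dim, and its KO arrays (62.4 to 112) lay below the lowest mean signal that the filter kept, 117. It passed the filter through its HZ and WT arrays, so nothing is read from its place among the 3. Hr, a corepressor gene that thyroid hormone induces directly, was on the other side, with a log2 change of 0.32 in KO against WT (adjusted p = 0.755) and 0.39 in HZ against WT. The list's median in KO against WT was 0.024, beside 0.0212 over all genes. In KO against HZ 9 of 11 lay below 0, where 54.9% of all genes did, with a median of -0.34, beside -0.03 over all genes. This was not particular to the list. Of the cell type markers given below, 10 of 12 endothelial and mural and 10 of 15 astrocyte ones (median -0.29) lay below 0 there. In fibroblasts it was 2 of 5.

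Glucocorticoid machinery outside the members, 12 genes of steroid metabolism and receptor chaperones, had 7 measured and 0 past the threshold, with a median of 0.00197 in KO against WT. Bag1, a co-chaperone that binds the glucocorticoid receptor, read 896 ± 226 in KO, 1234 ± 127 in HZ and 1277 ± 227 in WT mice (SD, n = 3), a log2 change of -0.52 in KO against WT (limma adjusted p = 0.549). The heat shock cognate gene Hspa8 had 0.17 (adjusted p = 0.776), and Abcb1a, a drug and steroid exporter of vessels, -0.20 (adjusted p = 0.822). The inactivating enzyme Hsd11b2 was dim and had a log2 change of 0.00110 (adjusted p = 1). H6pd, whose product supplies the cofactor of HSD11B1, was below the filter.

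Of 25 further glucocorticoid target genes 19 were measured and 0 passed in any comparison. In KO against WT 9 lay above 0 and 10 below, with a median of -0.01. At an unadjusted p below 0.05, 3 were lower and 0 higher, against the same shares of 3.74% and 4.41% over all genes. These were Bcl6, a transcriptional repressor, at 166 ± 28.3 in KO, 270 ± 56.8 in HZ and 313 ± 45.7 in WT mice (SD, n = 3, limma adjusted p = 0.390), Angptl4, a secreted inhibitor of lipoprotein lipase, at 234 ± 5.48, 371 ± 88.7 and 388 ± 34.7 (adjusted p = 0.460), and Glul, the glutamine synthetase gene of astrocytes, at 4239 ± 829, 3899 ± 289 and 5497 ± 839 (adjusted p = 0.584). The kinase gene Sgk1 had a log2 change of 0.01 in KO against WT (adjusted p = 0.991) and the clock gene Per1 0.28 (adjusted p = 0.845). On their brightest probe sets Tsc22d3 and Fkbp5 lay on the positive side in KO against WT, with an interval that spanned 0 for Fkbp5. In KO against HZ Fkbp5 was at -0.02. The 3 targets of smallest p lay on the negative side in KO against WT, but they were picked by that p from 19 that lay on either side.

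**Figure D4:**
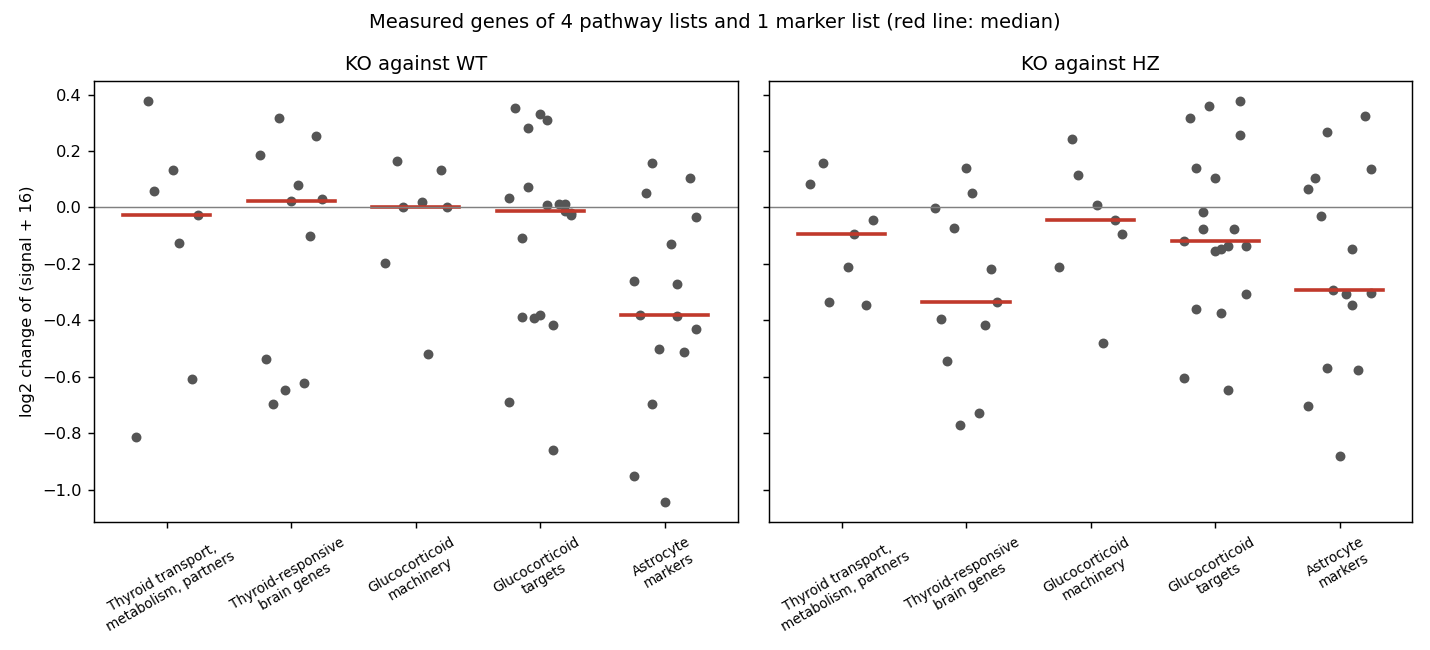
log2 change of (signal + 16) of each measured gene (points) of 4 pathway lists and the astrocyte marker list in KO against WT (left) and KO against HZ (right), with the median as a red line. In KO against WT the pathway medians lie between -0.03 and 0.02 and the astrocyte median at -0.38.

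Markers of the cells in the tissue were read on the same arrays, since Dio2 is chiefly an astrocyte gene. Fewer cells of a type and less RNA per cell cannot be told apart in such tissue. Of 18 astrocyte markers 15 were measured, and 12 of these lay below 0 in KO against WT, where 46.4% of all genes did, with a median log2 change of -0.38. At an unadjusted p below 0.05, 7 of the 15 were lower, where 3.74% of all genes were, and 0 passed the adjusted threshold. In HZ against WT, 11 of the 15 also lay below 0, where 43.3% of all genes did, with a median of -0.16. In KO against HZ, 10 of the 15 lay below 0, where 54.9% of all genes did. There 4 were lower at an unadjusted p below 0.05, where 4.08% of all genes were. The summed signal of the 18 markers was 24015 to 32959 in KO, 29297 to 30852 in HZ and 30110 to 36506 in WT mice. Its largest single part was Fabp7, a fatty acid binding protein gene of immature glia, which read 14174 in KO 2. Fabp7 had a log2 change of 0.05 in KO against WT. Without Fabp7, an omission chosen after seeing the data, the sum was 13295 to 18786 in KO, 18071 to 19216 in HZ and 19113 to 23493 in WT mice. KO and WT mice did not overlap then, but the highest KO array, KO 2, lay within the HZ range and close to the lowest WT array. Gja1 had a log2 change of -1.04 ± 0.16 (SE) in KO against WT (limma adjusted p = 0.114) and Slc1a3, a glutamate transporter, of -0.38 (adjusted p = 0.576). The others of the 7, named after their values were seen, were S100b, which encodes a calcium-binding protein, at -0.95 (adjusted p = 0.361), the aldolase gene Aldoc at -0.70 (adjusted p = 0.473), Mlc1 at -0.51 (adjusted p = 0.581), Ttyh1 at -0.43 (adjusted p = 0.576) and Glul, given above. Nearer 0 were 3 other markers, at -0.03 for the water channel gene Aqp4 (adjusted p = 0.977), 0.11 for Gfap (adjusted p = 0.934) and -0.27 for Aldh1l1 (adjusted p = 0.768). The remaining measured markers were Fabp7, given above, Slc4a4 at 0.16, Atp1b2 at -0.13, Acsl6 at -0.26 and Ndrg2 at -0.50. Gjb6, Sox9 and Slc1a2 were below the filter. S100b was dim, with a KO mean of 108, below the lowest mean signal that the filter kept, 117. The part of astrocyte content in the Dio2 and Hsd11b1 differences was not tested.

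Summed neuronal markers were 23380 to 33828 in KO, 26503 to 31021 in HZ and 27418 to 30897 in WT mice, and these sums rest largely on Stmn2 and Snap25. Of the 11 measured, 3 were higher in KO against WT at an unadjusted p below 0.05, namely Tubb3 (log2 change 0.33), Syt1 (0.55) and Neurod6 (0.63), and 1 was lower, Rorb (-0.66), with 0 past the adjusted threshold, where 4.41% of all genes were higher and 3.74% lower. Markers of endothelial and mural cells summed to 4557 to 5809 in KO, 5654 to 6331 in HZ and 5176 to 5751 in WT mice. In KO against WT 10 of the 12 measured lay below 0, where 46.4% of all genes did. Their median log2 change was -0.08, and 0 were lower at an unadjusted p below 0.05. Oligodendrocyte lineage markers summed to 3881 to 5488 in KO, 5228 to 6293 in HZ and 5259 to 7417 in WT mice, and those of meningeal and perivascular fibroblasts, with 5 of 10 markers below the filter, to 1434 to 2527, 1459 to 1874 and 1675 to 2069. In KO against WT 3 of 8 measured oligodendrocyte markers and 1 of 5 fibroblast markers lay below 0. Of the oligodendrocyte markers 2, Olig1 and Cnp, were lower at an unadjusted p below 0.05. Microglial markers, of which 7 of 10 were below the filter, gave 1390 to 1732, 1561 to 1982 and 1465 to 3215. All 3 measured lay below 0 in KO against WT, but WT 2 was the highest array for each, at 1410 for Csf1r, 240 for Tyrobp and 813 for C1qb. The other WT arrays lay within or just below the KO range. Choroid plexus markers were nearly all below the filter (4 of 5), and their small sums were 440 to 500 in KO, 403 to 485 in HZ and 253 to 365 in WT mice.

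**Figure D5:**
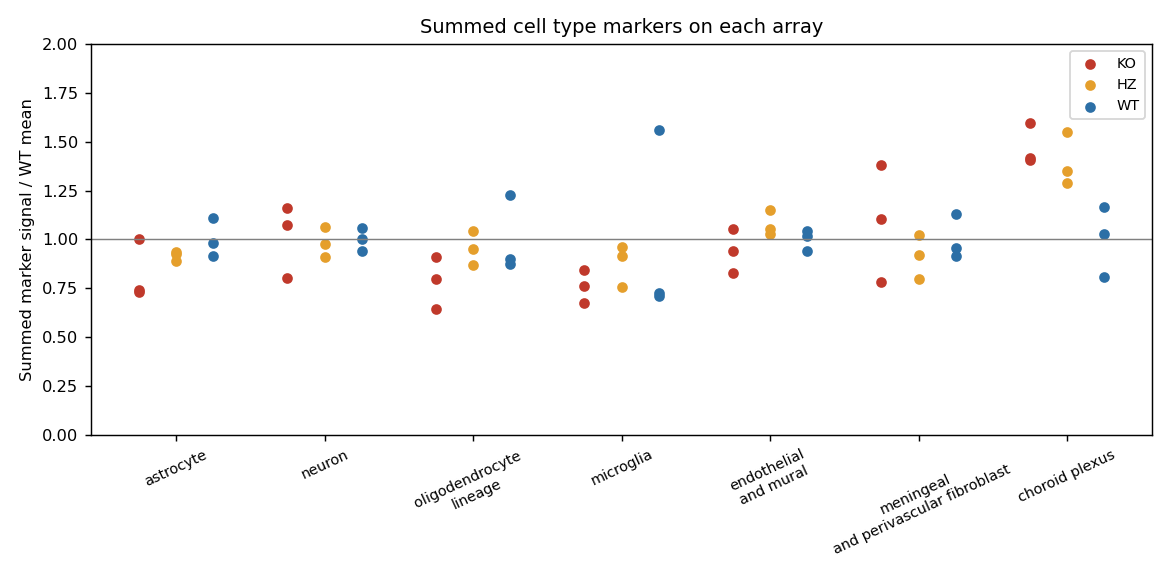
Summed signal of each cell type's markers on each array, divided by the WT mean of that sum (vertical axis, starting at 0); points are single KO, HZ and WT mice. Astrocyte sums of 2 KO mice lie below all other arrays and that of KO 2 (32959) lies near the WT mean. Without Fabp7, left out after seeing the data, KO 2 (18786) still lies above the other KO mice (14677 and 13295) and within the HZ range. The choroid plexus sums, made of dim probe sets, lie above all WT arrays in KO and HZ.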

How the data were processed

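Each of the 9 deposited columns holds linear intensities of probe sets, summarised by MAS5 with Affymetrix Expression Console (named in the submitters' processing notes) from laser-dissected RNA amplified, per the labels, with the Affymetrix protocol that repeats cDNA synthesis. Versions, scaling target and genome build: not given in the sources used here. A trimmed mean, leaving out 2% of probe sets at either end, came to 500 on every array, which shows the authors' scaling. Genotypes came from the titles. Intensities were analysed as log2(signal + 16), which understates changes of dim probe sets. Of 22626 probe sets that are not controls, the 60% with the highest mean log2 value were kept (13576), without use of genotype. limma 3.58.1 (R 4.3.3) fitted genotype alone to the 9 arrays, with eBayes and an intensity trend (6 residual and 6.94 prior degrees of freedom). Tests were 2-sided with Benjamini-Hochberg adjustment over all kept probe sets at a threshold of 0.05, and the procedure was tested on simulated data.

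Probe sets were named from the platform annotation where it gave 1 symbol, and the probe set with the highest mean stood for its gene. Named genes were all member probe sets, Gap43, the 3 genes most like each enzyme, from each pathway list the 3 with the smallest p for KO against WT, and a fixed set of pathway and astrocyte genes. The members and lists were chosen with earlier results of these data known. The alternatives were other pseudocounts, filters and normalizations, array weights, terms for replicate number, sex and 3'/5' ratio, the mean of a gene's probe sets, and each array left out. Same-numbered arrays did not deviate together (r from -0.255 to 0.111 over 9 pairs, 1 of them above 0.1), so the numbers were not taken as pairs. The labels count each array as 1 mouse, and the number of arrays limits the precision.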

Additional observations from a re-analysis of the deposited data

How the results depend on the processing

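Of 525 recomputed log2 changes of the 8 genes, 494 were counted as unchanged, 27 changed sign, 3 moved and 1 newly passed. The 494 say little, since many alternatives leave a log2 change as it was. These are the filters, no intensity trend, only the 2 genotypes compared, terms for replicate number or sex, and leaving out an array of the third genotype. The mean of all probe sets had no threshold, and was counted as unchanged or moved by its distance from the main value. None of the 22 alternatives changed the direction of Dio2 or Hsd11b1 in KO against WT or HZ. Leaving out arrays could not change it, since no KO array overlapped the others on the brightest probe sets. The mean of all probe sets gave -0.451 and -0.49 for Dio2 in KO against WT and HZ, and 0.475 for Tsc22d3 in KO against HZ. The 1 counted as newly passed was Dio2 in KO against HZ with a term for the 3'/5' ratio (-1.20). That contrast was known when the gene was chosen, so no test is read from it.
With arrays set to 1 median, Thra was -0.0233 and Thrb -0.0269 in KO against WT, Dio2 -0.0515 in HZ against WT and Fkbp5 0.0125 in KO against HZ. Quantile normalization gave Thrb -0.0255 in KO against WT. With a term for the 3'/5' ratio, Thra was -0.00364 in KO against WT and Thrb 0.00883 in HZ against WT. Array weights gave Thrb 0.209 in HZ against WT and -0.0419 in KO against HZ, and Fkbp5 0.0169 in KO against HZ. The mean of all probe sets gave Klf9 0.108 and Tsc22d3 -0.0668 in HZ against WT, against 0.41 on the brightest Tsc22d3 probe set. With 1 array left out, KO against WT ranged from -0.0186 to 0.0753 for Thra and from -0.135 to 0.175 for Thrb. HZ against WT ranged from -0.206 to 0.281 for Dio2, -0.389 to 0.00675 for Hsd11b1, -0.227 to 0.157 for Thrb and -0.236 to 0.0753 for Klf9. KO against HZ ranged from -0.127 to 0.236 for Thrb, -0.189 to 0.0373 for Nr3c1 and -0.123 to 0.0834 for Fkbp5.
Over all probe sets, the count past the threshold in KO against WT (1) was 0 with no filter, no intensity trend or only the 2 genotypes compared, and 5 with array weights. In HZ against WT (0) it was 3 with array weights. In KO against HZ (1) it was 0 with no filter, quantile normalization, arrays set to 1 median, no intensity trend or only the 2 genotypes compared, 3 with a term for the 3'/5' ratio and 2 with the replicate block, which changed no other call. It ranged from 0 to 2 in each comparison with 1 array left out. The members at an unadjusted p below 0.05 in HZ against WT (2) numbered 1 with quantile normalization, 0 with arrays set to 1 median and 0 to 3 with 1 array left out.
Over all 9 arrays, r of Dio2 with Klf9 was 0.144, but -0.334 with genotype means taken out, -0.409 in HZ and WT arrays, and -0.0961 to 0.29 with 1 array left out. For Hsd11b1 with Tsc22d3 it was -0.624, but 0.0668 with genotype means taken out, -0.86 without the 2 farthest arrays, KO 3 and HZ 1, which keeps KO arrays and so values that chose Hsd11b1, and -0.848 to -0.489 with 1 array left out. The cause of these changes was not tested. Dim probe sets, Thrb among them, limit what could be seen.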
